A study of Mus musculus with 2 samples.

Results

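The genes described here encode the machinery of regulated vesicle exocytosis, together with family members that serve other membrane traffic. Members were taken by gene name on the non-control spots of the array: synaptotagmins, syntaxins, the SNAP and VAMP families, complexins, syntaxin-binding proteins, priming factors, Rab3 and Rab27 GTPases, synaptotagmin-like proteins, synaptophysin, synapsins and the SV2 proteins. The names matched 77 of 35019 genes, carried by 125 of 55681 probes and 134 of 59305 spots. Every name on the array counts as a gene here, including names that are only a probe identifier or a chromosome interval. The shares of all genes below include them. Snap91, a clathrin adaptor of endocytosis, entered only because it shares the Snap name.

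The study asked how gonadotropin-releasing hormone (GnRH) alters the transcripts of cells labelled GT1-7, a name that stands for an immortalised mouse line used as a model of GnRH neurons. RNA was labelled with a single dye and hybridised to an Agilent mouse array. The vehicle group was 1 array of cells given DMSO for 30 min, and the GnRH group was 1 array of cells given 50 nM GnRH for 30 min. Both groups were the same line in the same medium by the labels, with no other agent or genetic change named, although a free-text note on each sample names A549 cells and bradykinin. The line of that name is known to come from a tumour induced by a viral T antigen under a GnRH promoter; whether these cells are that line rests on the labels alone. No culture was repeated, so no difference below has a replicate check, no test was made, and precision is limited by the number of arrays.

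Vesicle fusion is driven by SNARE proteins: a VAMP on the vesicle zips together with a syntaxin and a SNAP25-type protein on the target membrane. Syntaxin-binding proteins and the Munc13 and CAPS priming factors assemble that complex, complexins clamp it, and synaptotagmins release the clamp when calcium binds. Neuroendocrine cells such as GnRH neurons use this machinery to secrete peptide from dense-core vesicles, whose supply Rab3 and Rab27 help to control.

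The line's labelled identity was checked first. Of the pan-neuronal markers, 8 of 11 were well above background on both arrays, among them Tubb3, Map2 and Gap43, while Rbfox3, Stmn2 and Dcx were not. Of the GnRH-neuron markers 4 of 7 were, but Gnrh1 itself stood at 7.94 and 10.3 (processed signal, arbitrary units, vehicle then GnRH) and was not well above background. Six6 and Nhlh2 of the same list were at 3.09 to 4.50 and likewise not above it, while Kiss1r read 81.9 and 78.1 and Otx2 80.2 and 49.9. Brighter in that list were Isl1, at 2457 and 2479, and Gal, at 1534 and 1434. Gonadotrope markers were well above background for 6 of 7 genes, Fshb being the exception. The glycoprotein hormone subunit gene Cga read 80508 and 69481, Pitx1 48204 and 44001, Nr5a1 33412 and 28614, and the GnRH receptor gene Gnrhr 14862 and 13656. Gata2 was dimmer, at 188 and 182, as was Lhb, at 71.5 and 72.1. The dim Gnrh1, Six6 and Nhlh2 and the bright Cga, Pitx1, Nr5a1 and Gnrhr go against the GnRH-neuron label. The bright Isl1 and Gal and the dim Lhb do not, so the cells are called here by their labelled name only. Markers of other pituitary cells were well above background on both arrays for 0 of 6 genes. One of them, Tbx19, read 8.08 with vehicle and 1048 with GnRH, where it was well above background; its spot lay in an area of the array in which neighbouring spots differed together, the 13 measured spots around it having a median log2 difference of 1.33. The astrocyte list had 4 of 6 genes so measured, the microglia and macrophage list 3 of 6, and the fibroblast and endothelial list 3 of 7. Over all names on the array the share was 60.6%, so these counts from short lists do not by themselves mark a cell type. The markers measured on both arrays differed by -0.26 to 0.23 on the log2 scale between the arrays, apart from Otx2 of the GnRH-neuron list at -0.59, and their part in the results was not tested. The immediate-early genes checked as a sign of treatment were all higher on the GnRH array, from 3.31 (Junb) to 8.47 (Egr1).

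The probes below are those on which the largest differences and the disagreements between probes rest, with the marker genes Syt1, Snap25 and Vamp2 for comparison. Each line gives the first 30 of 60 bases, 5′ to 3′, as the array files list them, with the position of the whole probe in build mm9.

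Syt10, chr15:89612967-89613026, minus strand: aggccaccgtccacaccataaaagcctcca
Vamp1, brighter probe, chr6:125171818-125171877, plus strand: ttaggtgtagttggcattcgttcttctggg
Vamp1, dimmer probe, chr6:125190387-125190446, plus strand: caaaaatggtcccccaagaaactggaattt
Syt1, chr10:107935310-107935369, minus strand: aggggctttcctacttaagggaccaagtcc
Snap25, chr2:136607709-136607768, plus strand: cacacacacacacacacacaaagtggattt
Vamp2, brighter probe, chr11:68905527-68905586, plus strand: agtgtgagagagaaagcaagctatttcctt
Cplx2, unique probe, chr13:54485200-54485259, plus strand: tccccactttgtatgatgcaaatgctaaga
Cplx2, repeat probe, chr13:108816800-108816859, plus strand: aggaggaggaggaggaggaggaggaggagg
Stx3, dimmest probe, chr19:11850243-11850302, minus strand: gatggtataaatttctattagtactctcat
Sytl4, brighter probe, chrX:130470950-130471009, minus strand: ccaggctcagacttgttctttgatattcta
Sytl4, dimmer probe, chrX:130481094-130481153, minus strand: gggatcttgggggtccagagagatatactt

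The Syt10 and Vamp1 probes have no simple repeat, whereas the repeat probe of Cplx2 is a run of GGA units that holds only 6 distinct 3-base words. The Snap25 probe opens with a CA run but holds 28 such words over its length. RefSeq names matched 110 of the 125 member probes by accession, and all 110 kept the symbol of the array file. Exons and introns are not assigned, because no annotation of that build was used.

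Of the 77 genes, 67 (87.0%) had a probe well above background on both arrays. The share was 60.6% over all names on the array, probe identifiers and chromosome intervals included. The 10 others were Syt2, Syt8, Syt12, Syt15, Stx19, Cplx3, Cplx4, Sytl2, Sytl5 and Sv2b. Their brightest probes read between 3.44 (Sv2b) and 17.2 (Syt15) on the vehicle array, and no fold is given for them. No member had its only detected probe on 1 array alone.

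**Figure D1:**
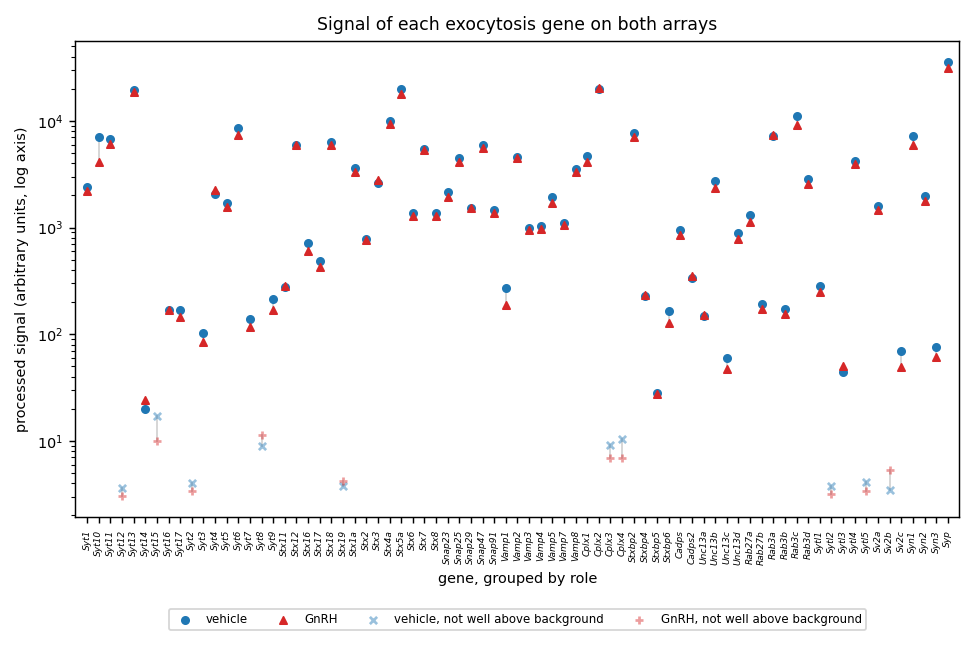
Processed signal (arbitrary units, log axis) of 75 of the 77 exocytosis genes on the vehicle array (blue) and the GnRH array (red), grouped by role; for measured genes the probe that gives the gene's value, for the 10 genes not well above background the brightest probe (pale crosses). The marks of a gene lie close together for nearly all genes, and the widest gap among bright genes is that of Syt10 (6988 and 4139); signals of different genes come from different probes and are not to be ranked.

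Differences across the machinery were small. Differences below are log2 values, GnRH minus vehicle, after each array was scaled to its 75th percentile (578 for vehicle, 541 for GnRH), so that equal raw signals give a slightly positive difference. The error is the scanner software's own estimate for both spots combined and holds no variation between cultures. No member reached a 2-fold difference, higher (0 of 67, against 0.311% of all 21219 measured genes) or lower (0 of 67, against 0.132%). At 1.5-fold, 0 of 67 were higher (1.19% of all measured genes) and 1 of 67 was lower (1.49%, against 0.881% of all measured genes). That gene was Syt10. Within 0.3 of 0 lay 63 of the 67 (94.0%, against 90.5% of all measured genes). The median was -0.04, against -0.01 for all measured genes, and 45 of the 67 (67.2%) lay below 0, against 52.5% of all. Those shares moved with the processing. Without background correction they were 68.7% of members and 46.0% of all, and with each array scaled to its median 71.6% and 63.1%. Scanner errors ran from 0.20 to 0.40, and a difference of over 2 errors was found for Syt10 and Vamp1 only, where 2.68% of all measured genes had one.

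**Figure D2:**
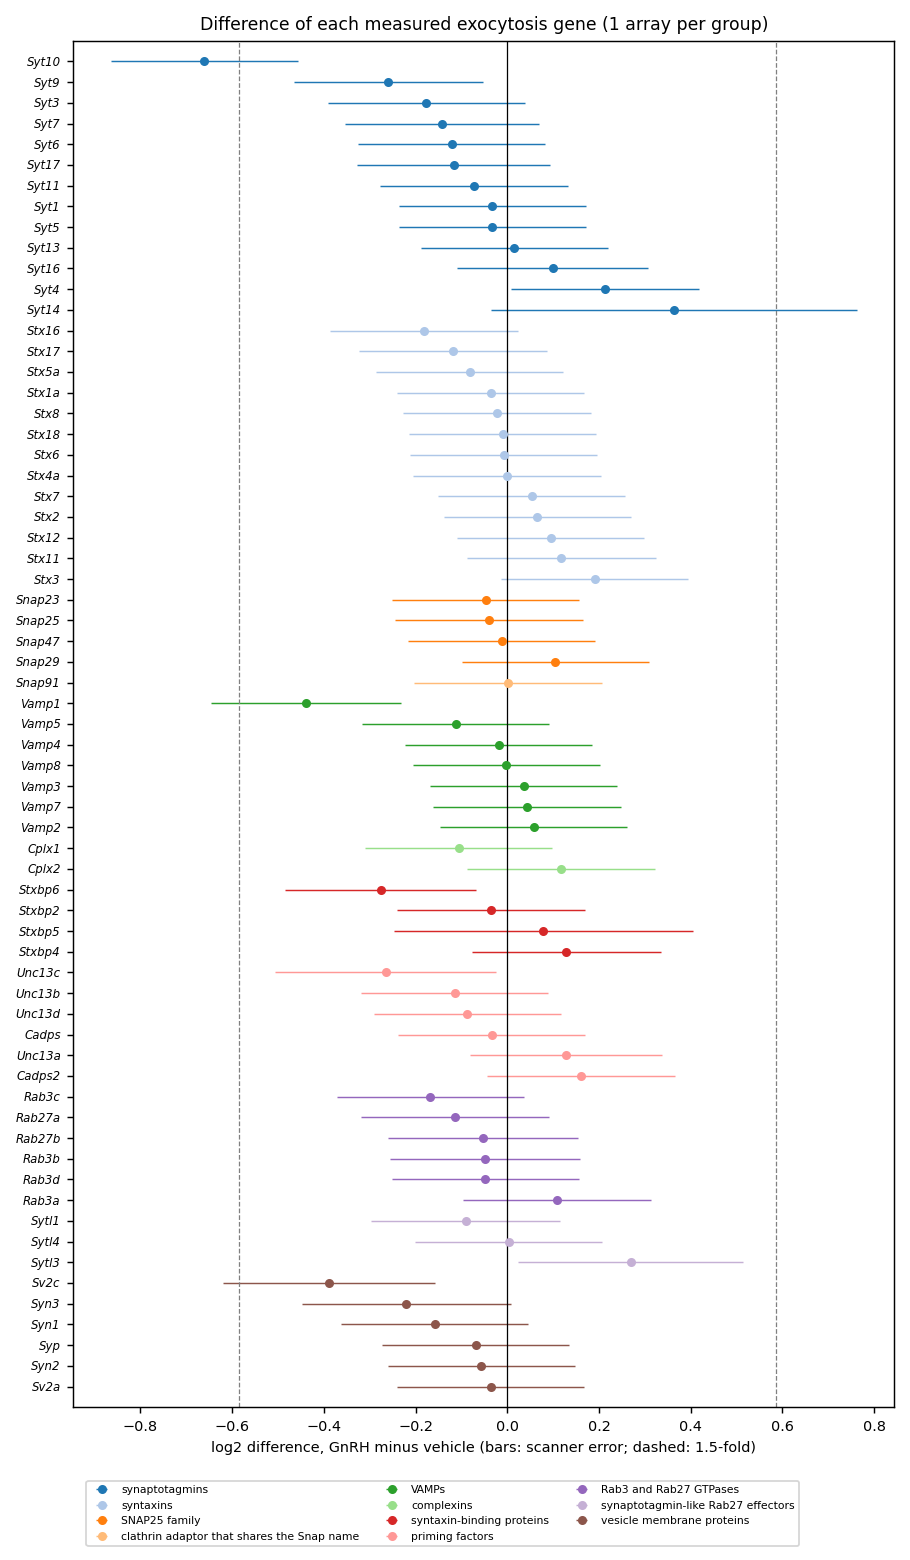
Log2 difference (GnRH minus vehicle, scaled to the 75th percentile) of 65 of the 67 measured exocytosis genes, coloured by role, with 1 array per group; bars are the combined scanner error and dashed lines mark 1.5-fold. Syt10 at -0.66 is the only point beyond a dashed line, and 43 points lie left of 0.

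Synaptotagmins are the calcium sensors of fusion, and they gave both the lowest and the highest value of the whole set. Of 13 measured members, 9 lay below 0 (69.2%, against 52.5% of all measured genes) and 4 above, with a median of -0.07. Syt10, a calcium sensor of vesicles that carry insulin-like growth factor in olfactory bulb neurons and a gene known to be induced by seizures, read 6988 with vehicle and 4139 with GnRH. It was 1.58-fold lower with GnRH, a log2 difference of -0.66 ± 0.20 (scanner error), or 3.24 times its error. In bulk RNA such as this, fewer cells with a transcript and less of it per cell cannot be told apart. The value rests on 1 probe with 1 spot per array. The 9 spots around it that were well above background differed by -0.25 to 0.14, with a median of -0.02.

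Syt1, the sensor of fast synchronous release, read 2422 and 2216, a log2 difference of -0.03 ± 0.20. Syt4, a dense-core vesicle synaptotagmin whose first calcium-binding domain does not bind calcium and which is known as an activity-induced gene, read 2067 and 2244. Its difference was 0.21 ± 0.20, opposite in sign to that of Syt10 and about the size of its error. Of the pair only Syt10 passed 1.5-fold, and the difference between them was not tested. Syt9, another fast calcium sensor, read 216 and 169 (-0.26 ± 0.21). Syt14, which does not bind calcium, was dim, at 19.9 and 24.0, and its 0.36 ± 0.40 lay within its error; the background corrections tried moved it as low as 0.10. Syt13 (19657 and 18597, 0.01) and Syt6 (8565 and 7374, -0.12 ± 0.20) were bright on both arrays and differed by less than their errors. The remaining 6, Syt3, Syt5, Syt7, Syt11, Syt16 and Syt17, ran from -0.18 to 0.10.

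The target-membrane SNAREs lay close to 0 on the log2 scale. Snap25, the neuronal partner of syntaxin, read 4514 and 4112, a difference of -0.04 ± 0.20. Snap47, an intracellular relative, read 5935 and 5510 (-0.01). The 4 SNAP25-family genes ran from -0.05 (Snap23, the non-neuronal form) to 0.10 (Snap29), all within their errors. Of 15 syntaxins 14 were measured, with a median of -0.01. Of these, 9 lay below 0 and 5 above, and 0 passed 1.5-fold; the count below 0 was 7 under quantile normalization and in the authors' deposited table and 6 after removal of a lowess trend, so no direction is given. Stx1a, a neuronal plasma membrane syntaxin chosen here after its value was seen, read 3646 and 3330 (-0.04 ± 0.20). Stx5a, a Golgi syntaxin, read 20093 and 17780 (-0.08), and Stx4a, a plasma membrane syntaxin of many cell types, read 10012 and 9371 (-0.00).

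The vesicle SNAREs had a median of -0.00 over 7 measured genes, and 6 of them lay between -0.11 and 0.06. Vamp1, the synaptobrevin found mostly in brainstem, spinal cord and motor neurons, read 270 and 186 on its brighter probe, a difference of -0.44 ± 0.21. Its dimmer probe read 21.3 and 21.2, at 0.09 ± 0.37, and the mean over both probes was -0.18. Vamp2, the main neuronal synaptobrevin, read 4613 and 4496 (0.06 ± 0.20). Its spot lay in 1 of 3 small areas of the array in which neighbouring spots differed together, and the 10 measured spots around it had a median of -0.15. The other Vamp2 probe lay outside those areas and read 43.0 and 35.5, at -0.18 ± 0.28, so the sign turned but both values were within their errors. Vamp8, an endosomal SNARE also used in granule secretion, read 3529 and 3300 (-0.00).

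Complexins bind the assembled SNARE complex, and 2 of 4 were measured. Cplx1 read 4698 and 4086 (-0.11 ± 0.20). Cplx2 had 5 probes well above background, and 4 of them are GGA repeats of 6 distinct 3-base words each. The brightest, a repeat probe placed at a site of chromosome 13 away from the other Cplx2 probes, read 19899 and 20208 (0.12 ± 0.20). The unique probe read 4252 and 3588, at -0.15 ± 0.20. The sign of the Cplx2 value therefore depends on whether repeat probes are used, while both values were within their errors.

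Among the factors that act before fusion, no member passed 1.5-fold. The 5 syntaxin-binding genes had a median of -0.04, from Stxbp6 (amisyn, an inhibitor of SNARE assembly; 166 and 128, -0.28 ± 0.21) to Stxbp4 at 0.13. Stxbp2, known for its part in granule secretion by blood and epithelial cells, read 7759 and 7088 (-0.04). The 6 priming factors had a median of -0.06. Unc13c, a Munc13 of the cerebellum, read 60.3 and 47.0 (-0.27 ± 0.24). Unc13b, a Munc13 of brain and other secretory tissue, read 2726 and 2358 (-0.11), and Cadps, the CAPS protein of dense-core vesicle priming, 941 and 861 (-0.03). Cadps2 was highest of the priming list at 0.16, with its other measured probes at -0.06 and -0.31.

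Of the 6 Rab3 and Rab27 GTPases, which tether secretory vesicles, 5 lay below 0, with a median of -0.05. Of all measured genes 52.5% lay below 0. All 6 differences were within their errors, so no direction is given. Rab3c read 11068 and 9223 (-0.17 ± 0.20), and of its other probes 1 gave -0.16 and 1 gave 0.15. Rab3a, the main neuronal Rab3, read 7253 and 7320 (0.11 ± 0.20). Rab3b, Rab3d, Rab27a and Rab27b ran from -0.11 to -0.05. The Rab27 effectors were measured for 3 of 5 genes. Sytl4 (granuphilin, which docks dense-core granules) read 4219 and 3960 (0.00 ± 0.20) on its brighter probe and 84.2 and 54.7 (-0.53 ± 0.24) on its dimmer one, with a mean over both of -0.26. Sytl3 read 44.2 and 49.8 (0.27 ± 0.25), and Sytl1 read 285 and 251 (-0.09 ± 0.21).

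Proteins of the vesicle membrane lay below 0 for 6 of 6 measured genes, with a median of -0.11. Of all measured genes 52.5% did, a share that ran from 46.0% to 63.1% over the settings tried. A background correction by normexp, a model of signal plus noise, was run with 50 units added to each signal. That addition makes the log2 differences of dim probes smaller in size. With this correction 5 of 6 lay below 0, and with no filter on dim probes 6 of 7. Other roles reached such a count under single settings, priming factors with 6 of 6 for the mean over probes and complexins with 2 of 2 without repeat probes. Sv2c, the SV2 form of basal ganglia and neuroendocrine cells, read 69.0 and 49.4 (-0.39 ± 0.23), became -0.12 with normexp, and had 2 further probes that were not well above background. Syn3, a synapsin of developing neurons, read 76.4 and 61.4 (-0.22 ± 0.23), and its other measured probes gave -0.14 and -0.29. Syn1, the synapsin that tethers vesicles to actin, read 7148 and 5997 (-0.16 ± 0.20). Syp, the abundant vesicle protein synaptophysin, read 35333 and 31546 (-0.07 ± 0.20). Syn2 and Sv2a stood at -0.06 and -0.04. Only Sv2c exceeded its own error. Snap91, the endocytic adaptor, read 1473 and 1381 (0.00).

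Several probes measured the same gene for 29 members, which gives a check within the arrays. The median spread between a gene's probes was 0.15, the sign differed among the probes of 17 genes, and the spread exceeded 0.5 for 3 (Stx3, Sytl4 and Vamp1). Stx3, a plasma membrane syntaxin of epithelia and ribbon synapses chosen here for its spread, was the only one whose probes differed by over 2 combined errors. Its brightest probe read 2634 and 2814 (0.19 ± 0.20), and its dimmest 44.0 and 27.9 (-0.57 ± 0.28). Its remaining probe was printed 10 times on each array, and not all of these spots lay outside the areas in which neighbouring spots differed together. The 9 spots kept gave a mean of 0.13 with an SD of 0.08 over spots, from 0.02 to 0.24. The spot left out, marked by the scanner as an outlier, read 1222 on the vehicle array, where the kept spots read 480 to 555.

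**Figure D3:**
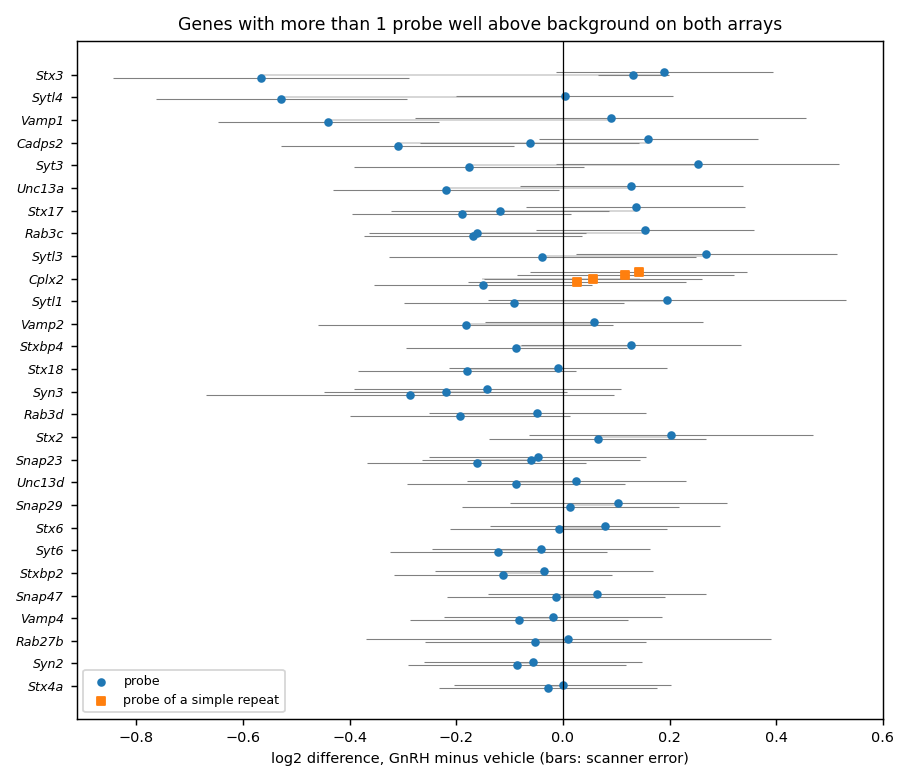
Log2 difference (GnRH minus vehicle) of each probe well above background on both arrays, for 28 of the 29 exocytosis genes with more than 1 such probe; bars are the combined scanner error and orange squares are probes of a simple repeat. Probes of Stx3, Sytl4 and Vamp1 spread over more than 0.5, and the repeat probes of Cplx2 lie right of 0 while its unique probe is at -0.15; Syt10 has 1 probe and is not shown.

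The size of the Syt10 difference was set against genes of the same or higher signal, at a limit chosen after the values were seen. Genes just dimmer than Syt10 are not in that set, and far brighter ones are. Of 4726 genes with a mean signal at or above that of Syt10, it was the only gene at least 1.5-fold lower (0.0212%), and 16 (0.339%) were at least 1.5-fold higher. The other 15 of the 16 members with such signals lay between -0.17 and 0.12. The next lowest gene of these 4726 was Napa, alpha-SNAP, the adaptor that brings NSF to used SNARE complexes to take them apart. Napa read 19979 and 14083 (-0.41 ± 0.20) on its brighter probe and 1548 and 1447 (-0.00 ± 0.20) on the other. Probes printed 10 times with a signal within 1 log2 unit of that of Syt10 numbered 67, and their spot-to-spot SD had a median of 0.04 and a highest value of 0.06. That SD was taken over kept spots and does not bound a single spot: the spot of Stx3 that was left out differed by -1.09. Syt10 has no second spot or probe on these arrays, and its spread between cultures was not measured.

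**Figure D4:**
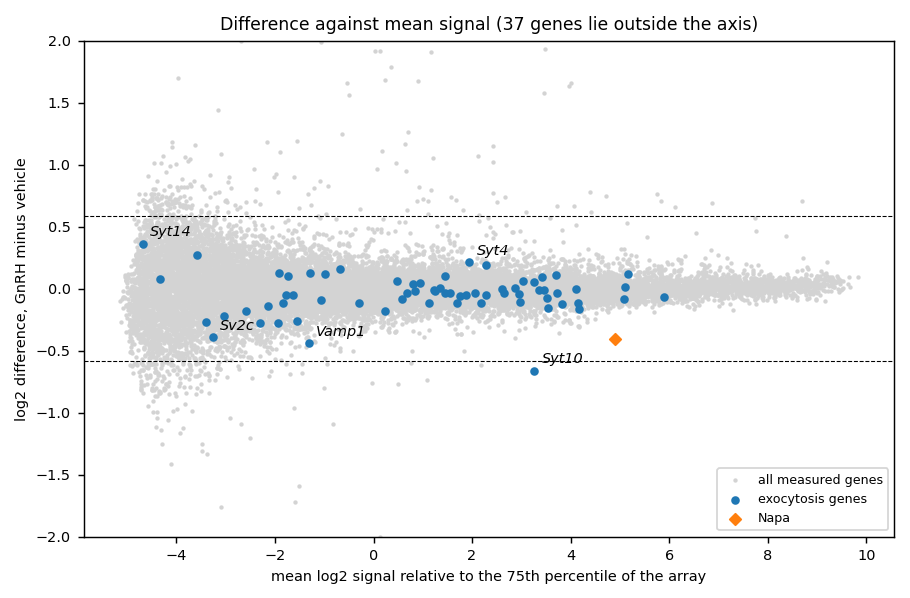
Log2 difference (GnRH minus vehicle) against mean log2 signal relative to the 75th percentile, for all 21219 measured genes (grey), the 67 exocytosis genes (blue) and Napa (orange); dashed lines mark 1.5-fold and 37 genes lie beyond the vertical axis. The grey cloud narrows to the right, Syt10 lies below it at -0.66, and Syt14 and Sv2c lie in the wide left end.

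The rest of the pathway, a list of genes outside the name rule, had counts near the shares of all measured genes. Of 66 such genes on the array 58 were measured, with a median of -0.03, against -0.01 for all measured genes. Of the 58, 25 lay above 0 and 33 below (56.9%, against 52.5% of all). At 1.5-fold 0 were higher, against 1.19% of all, and 0 lower, against 0.881%. Napa was the lowest, and Slc18a1, a vesicular monoamine transporter of neuroendocrine cells, the highest, at 96.6 and 116 (0.36 ± 0.22). The 9 exocyst subunits, which tether vesicles to the plasma membrane, ran from -0.13 to 0.05. The 12 measured active zone genes ran from -0.24 (Bsn, a scaffold) to 0.17 (Ppfia2, a liprin).

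The promoter of Syt10 is shown because it was the member with the largest difference. The letters are the 250 bases upstream of the RefSeq start, in build GRCm38.p6 at chr15:89841861-89842110, minus strand, with the match to TGACG in capitals.

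Syt10 promoter: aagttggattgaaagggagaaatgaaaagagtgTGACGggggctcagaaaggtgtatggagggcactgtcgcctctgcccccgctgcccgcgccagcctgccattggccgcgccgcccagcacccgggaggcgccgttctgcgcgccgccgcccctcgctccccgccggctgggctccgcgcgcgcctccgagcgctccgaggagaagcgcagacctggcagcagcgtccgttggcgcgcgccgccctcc

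The stretch has a GC content of 72%. Both strands were searched for TGACGTCA (the cyclic AMP response element), for its core TGACG, for TGANTCA (bound by AP-1), for GCGNGGGCG (bound by EGR proteins) and for the CArG box bound by SRF. Every full TGACGTCA also holds TGACG. Syt10 had a single TGACG, starting at position -217 on the plus strand of the gene, and 0 matches to the other motifs. TGACG is common: 17.8% of 32851 promoter windows of that length held it, as did 16 of 77 windows (20.8%) of the 60 member genes that matched. The full element was in 1.55% of all windows, the AP-1 letters in 6.75%, the EGR letters in 4.70% and the CArG box in 1.47%, and among the 77 member windows in 1, 2, 6 and 1. These matches describe letters and not binding.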

How the data were processed

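The members, role lists and pathway list were chosen with earlier results of these data known. Linear processed intensity values per spot were read from the deposited scanner files. Background had been subtracted within each array by Feature Extraction 10.7.1.1, per the file headers (9.5.1.1 per the submitters' processing notes). The authors' deposited value table also holds intensity values, and its differences correlated with those of the scanner files at r = 0.998 over 29665 probes (probes within 2 arrays, not independent replicates). How that table was normalized is not given in the sources used here. Its median was 28.4 on both arrays. Its counts of all measured genes past 2-fold and 1.5-fold equalled those under quantile normalization. That table and quantile normalization are therefore not separate checks.

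Spots that were controls or carried an outlier mark (121 for vehicle, 94 for GnRH) were dropped. The log2 processed intensity of a probe's spots was averaged and the array's 75th percentile subtracted. The scanner's mark for signal well above background, present on 55.2% and 56.9% of non-control spots, had to be on 50% or more of a probe's remaining spots; 0 spots were saturated. Each gene was represented by its brightest probe that passed on both arrays. Errors are the software's, with a multiplicative setting of 0.1. Genes were counted at 2-fold and 1.5-fold, with no test, since each group had 1 array.

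Signals on both arrays are given for Snap25, Syt1, Syt4, Syt10 and Vamp2, for members past 1.5-fold, for the 10 largest differences and for the 2 members of each role with the highest signal. The rule also took members above background on 1 array only, or with probes 1 or more apart on the log2 scale, and found none. Pathway genes named by rule are those past 1.5-fold and the 2 largest differences; others named were chosen after their values were seen. Not every member is reported by name, but counts and medians cover them all. Spots where neighbours differ together (a median of 0.3 or more in size over at least 4 connected spots, widened by 2) formed 3 areas of 582 spots (0.981%). The scaling and the averaging of spots were checked on simulated data, made from the vehicle array with planted folds. All probes of a gene were given the same planted fold, so the choice of probe could not be checked that way. The alternative settings, the errors, the areas and the motif search were not checked in that way. Values were computed with Python 3.11.15, pandas 2.3.3, statsmodels 0.14.6 and, for normexp, limma 3.58.1.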

Additional observations from a re-analysis of the deposited data

How the results depend on the processing

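Of 13 alternatives, 12 were planned and leaving out probes of simple repeats (at most 15 distinct 3-base words) was chosen after seeing the data. Syt10 was at least 1.5-fold lower in all 13, at -0.69 to -0.62. The median of the measured members ran from -0.06 to -0.03 and that of the pathway list from -0.06 to -0.01. The count of members at least 1.5-fold lower went from 1 to 2 with no filter on dim probes and to 2 with the looser background call, both adding Syt15, and the count at least 1.5-fold higher went from 0 to 1 with no filter (Sv2b); neither gene was well above background. Of 424 values of 33 named members, 5 shifted beyond their scanner error, 3 of them with a change of sign (Cplx2, Vamp2 and Sytl4): Cplx2 to -0.15 without repeat probes, Sv2c to -0.12 with normexp, Vamp2 to -0.18 without the areas, and Sytl4 to -0.26 and Vamp1 to -0.18 with the mean over probes. Over all measured genes, the 187 at least 1.5-fold lower were 23 under normexp, 22 without background correction, 24 with the stricter filter, 955 with the looser call and 1666 with no filter, and the 253 higher became 86, 88, 86, 1412 and 2647. The 28 at least 2-fold lower became 12, 12, 9, 311 and 760, and 14 without the areas. In the same order the 66 higher became 46, 47, 45, 552 and 1259, and 45 without the areas. Normexp was run with 50 units added to each signal, and uncorrected signals keep their background. Both make the log2 differences of dim probes smaller in size. How far this made up the changes in count was not tested, nor were other causes. Signal over background limits the dim members, whose errors reach 0.40. No paired analysis was possible because each group has 1 array, and no array could be left out.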
